A study of Mus musculus with 30 samples.

Results

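Collagens are secreted or membrane-bound proteins built of 3 chains wound into a triple helix, and each chain has its own gene. The collagen genes described here are the genes of the deposited expression table whose symbol has the form Col, a type number, a and a chain number, and whose level was 1 FPKM or more in 5 or more of the 30 samples. FPKM is the number of fragments scaled by transcript length and by all mapped fragments, so levels can be set side by side between genes. Of 44 collagen rows among 51904 rows in all, 40 met the rule, against 16741 genes of any kind. They fell into 11 fibrillar genes, 9 basement membrane genes and 20 genes of other types.

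The libraries came from retinal pigment epithelium (RPE), the pigmented layer between photoreceptors and choroid, of 30 mice, all of them wild-type C57BL/6 males between 10 and 13 weeks of age. Each of 6 zeitgeber times (ZT 0, 2, 4, 9, 14 and 19 h) had 5 mice, with 1 eye used per mouse, and no group received a treatment. There were 16 left and 14 right eyes, unevenly spread over time. All ZT4 samples were left eyes, and most ZT2 and ZT19 samples were right eyes. The eyecup that remained once the front of the eye and the retina were gone held RPE, choroid and sclera, and RPE clumps were lifted from it with forceps. The RPE label was borne out by 7 of 8 RPE marker genes, with medians from 187 FPKM for Lrat to 4251 FPKM for Ttr, while the median of Best1 was 0.61 FPKM and 8 samples listed it at 0. Markers of other eye tissues were present too. The summed level of 10 surface epithelium (cornea and conjunctiva) markers ranged from 2044 to 18242 FPKM, that of 10 skeletal muscle markers from 2032 to 24614 FPKM, and that of 10 stroma markers that are not collagens from 1201 to 2731 FPKM. In such bulk samples fewer cells of a type and less RNA per cell cannot be told apart.

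The estimated depth was 12.5 to 23.04 M reads (M: mega) per sample. The ZT14 sample of replicate 3 stood apart, with 557 genes listed at 0 that elsewhere had a median of 10 FPKM or more. In each other sample there were 1 to 23 such genes. Among the collagen genes Col9a2, Col15a1, Col7a1, Col5a3, Col22a1, Col20a1, Col28a1, Col25a1 and Col26a1 were listed at 0 in that sample.

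As background, fibrillar collagens such as types I, III and V form the striated fibres of sclera and choroidal stroma. Type IV collagens form the sheet-like network of basement membranes, including those of the RPE and of the choroidal capillaries, which form the faces of Bruch membrane. Type VIII collagens form short-chain networks, types VI, IX, XII and XIV attach to or run between fibres, and type XVII is a membrane protein of the hemidesmosomes of stratified epithelia. Type XVIII, in basement membranes, is the source of endostatin.

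What the types share and where they part can be read in the coding sequence. Glycine recurs at every 3rd residue of a collagen helix, and its codons begin with gg, so the helix appears as codon triplets that each open with a glycine codon. The following stretches of 24 codons, from GENCODE M21 transcripts on GRCm38 and read 5′ to 3′ on the coding strand, show an unbroken fibrillar repeat, the short-chain repeat of the most abundant member, and the interrupted repeats of a type IV chain and of Col17a1. Glycine codons that open a triplet of a run of at least 3 triplets are in capitals.
Col1a2, codons 97 to 120: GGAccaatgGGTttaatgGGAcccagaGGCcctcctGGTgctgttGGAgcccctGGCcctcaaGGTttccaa
Col8a2, codons 315 to 338: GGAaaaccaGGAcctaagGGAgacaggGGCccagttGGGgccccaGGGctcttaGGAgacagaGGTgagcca
Col4a1, codons 151 to 174: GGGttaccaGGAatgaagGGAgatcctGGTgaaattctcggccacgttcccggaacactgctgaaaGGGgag
Col17a1, codons 804 to 827: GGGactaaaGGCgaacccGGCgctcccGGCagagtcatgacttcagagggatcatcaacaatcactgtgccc

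The printed stretches of Col1a2 and Col8a2 were taken from the start of the longest run, so the repeat fills all 24 codons. Those of Col4a1 and Col17a1 were placed across the end of the longest run, so it breaks off after 4 triplets. In Col4a1 the repeat resumed at the end. The contrast between the stretches thus reflects their placement. Over the whole coding sequence the longest run was 339 triplets in Col1a2, 59 in Col8a2, 55 in Col17a1 and 40 in Col4a1. The number of runs was 2, 10, 22 and 23 in that order. Over whole coding sequences, all 40 genes were matched. The longest unbroken run had a median of 338 triplets in the fibrillar genes, 42 in the basement membrane genes and 53.5 in the others. Col24a1 and Col27a1, at 216 and 217 triplets, were the shortest fibrillar runs. Basement membrane genes held 13 to 27 separate runs each, with a median of 23, against a median of 3 in the fibrillar genes. The others held 2 to 23 runs, with a median of 6, and so overlapped the basement membrane genes. Col9a1, Col9a2, Col9a3 and Col22a1 each had a longest run of 113 triplets, and Col8a1, Col8a2 and Col10a1 had runs of 60, 59 and 60. The triplets of Col12a1, a very long fibril-associated chain, took up 8.12% of its 3065 codons, against 85.6% of the 680 codons of Col9a3.

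**Figure D1:**
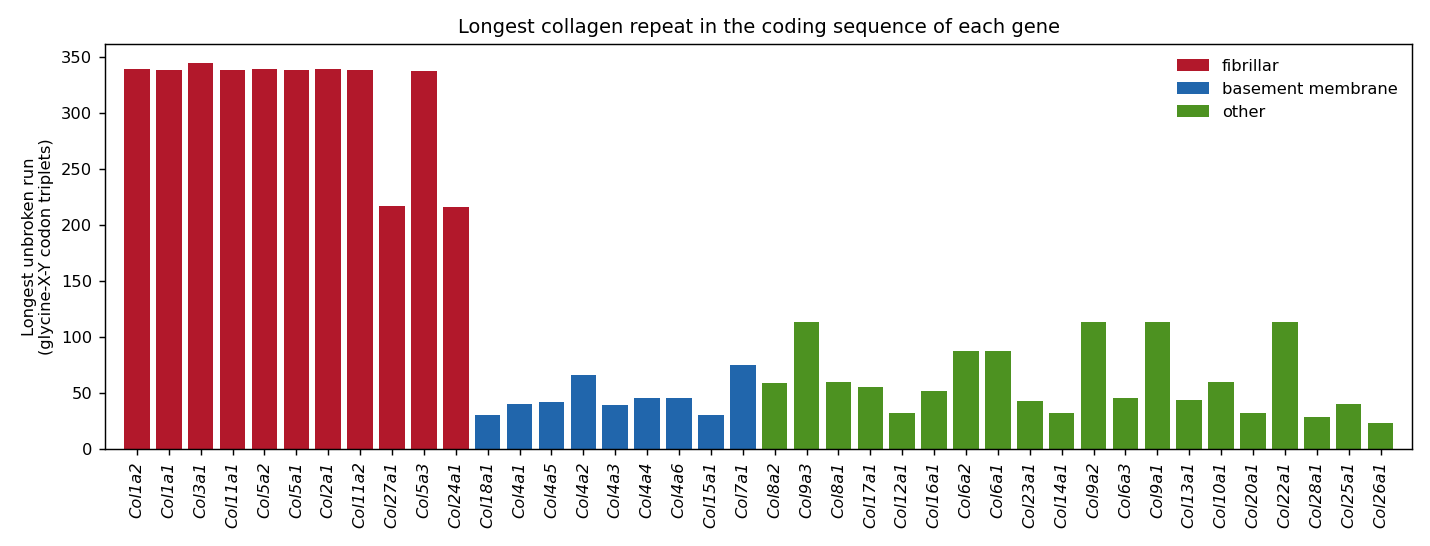
Longest unbroken run of glycine-X-Y codon triplets (vertical axis, number of triplets) in the coding sequence of each of the 40 collagen genes (horizontal axis, in order of median level within a type), 1 bar per gene and colour by type. The fibrillar bars stand at 216 to 344 triplets and the basement membrane bars at 30 to 75.

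Summed over the 40 genes, collagen transcripts made up 1064 to 2447 FPKM per sample, with a median of 1734 FPKM, or 0.131 to 0.326% of all FPKM. By median, genes of other types held 52.3% of the collagen sum, fibrillar genes 33.0% and basement membrane genes 13.7%. The highest median belonged to Col8a2, with 14.5% of the collagen sum, followed by Col1a2 with 10.9%, Col9a3 with 10.8% and Col1a1 with 10.2%. The summed level was 1378 ± 300.1 FPKM at ZT0 and 1981 ± 479 FPKM at ZT4 (mean ± SD, n = 5 each), the lowest and the highest time point, and the ranges of these groups overlapped.

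**Figure D2:**
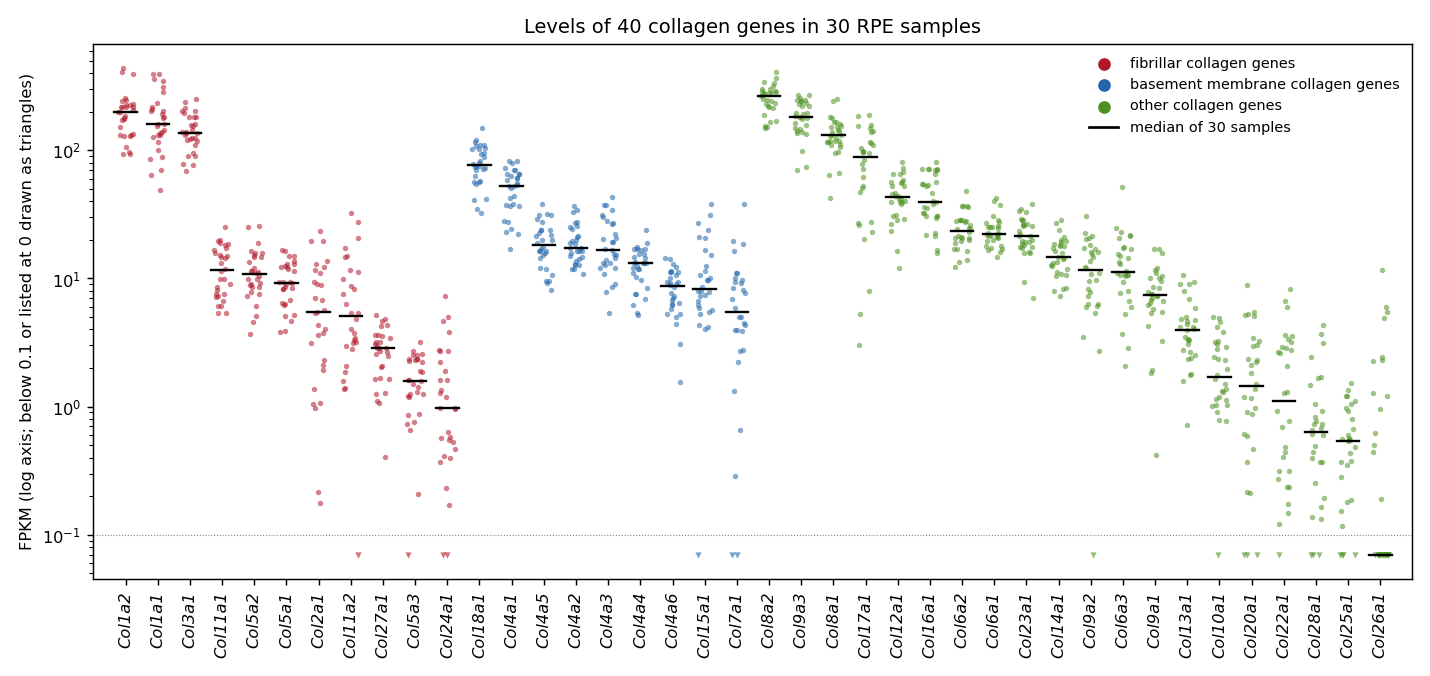
FPKM (log axis) of each of the 40 collagen genes in the 30 samples, 1 point per sample, with the median as a black bar and colour by type. Triangles below the dotted line stand for values under 0.1 or listed at 0. Col8a2 had the highest median, 267 FPKM, and the median of Col26a1 is listed at 0.

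Among fibrillar genes, 3 stood far above the rest. Col1a2, which encodes the second chain of type I collagen (chromosome 6, 4504814 to 4541544, plus strand, GRCm38), had a median of 200.4 FPKM and ranged from 93.5 to 437. Its partner Col1a1 had a median of 161 FPKM (48.9 to 395), and Col3a1, the type III chain, had a median of 138 FPKM (68.5 to 254). The widest of these ranges, that of Col1a1, was 8.07-fold from the lowest to the highest sample. The next gene, Col11a1, was at 11.6 FPKM (5.39 to 25.3), so the 3 leading genes did not overlap with it in any sample. The type V chains, which sit in the core of type I fibres, had medians of 10.8 FPKM for Col5a2, 9.28 for Col5a1 and 1.59 for Col5a3. Col2a1, the chain of cartilage and vitreous, had a median of 5.43 FPKM and ranged 133-fold, and Col11a2 had a median of 5.06 FPKM. Col27a1 was at 2.86 FPKM, and Col24a1 had the lowest fibrillar median, 0.97 FPKM.

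Col18a1 led the basement membrane genes, with a median of 77.0 FPKM (32.2 to 148). Col4a1, a chain of the type IV network found in nearly all basement membranes (chromosome 8, 11198423 to 11312826, minus strand), followed at 52.9 FPKM (17.1 to 83.3). Its partner Col4a2 was lower, at 17.4 FPKM (10.9 to 36.9), and Col4a1 was the higher of the pair in 29 of 30 samples. The other type IV chains build the networks of specialised basement membranes. Their medians were 18.3 FPKM for Col4a5 (8.14 to 37.9), 16.7 for Col4a3, 13.1 for Col4a4 and 8.70 for Col4a6. Col15a1, the relative of Col18a1, was at 8.32 FPKM. Col7a1, the anchoring fibril chain that ties epithelia to the stroma, had a median of 5.43 FPKM, was listed at 0 in 2 samples and reached 38.0 FPKM.

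The 20 other genes held 4 of the 7 highest medians of all. Col8a2 (chromosome 4, 126286793 to 126314330, plus strand), a short-chain network collagen, had a median of 267 FPKM (151 to 408), with a 2.71-fold range. Col8a1, its partner, had a median of 131 FPKM (42.7 to 253), while Col10a1, the cartilage member of the short-chain group, had 1.69 FPKM. Col9a3, a fibril-associated type IX chain, had a median of 183 FPKM (70.6 to 270.5), whereas Col9a2 was at 11.6 and Col9a1 at 7.39. Col17a1 (chromosome 19, 47646344 to 47692094, minus strand) had a median of 89.3 FPKM and ranged 63.2-fold, from 3.0 to 189.8.

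The remaining members of this class were lower. The fibril-associated Col12a1 (42.9 FPKM), Col16a1 (39.9) and Col14a1 (14.6) stood above Col20a1 (1.44) and Col22a1 (1.1). The 3 type VI chains, which form beaded filaments, had medians of 23.6 FPKM for Col6a2, 22.1 for Col6a1 and 11.2 for Col6a3. Of the transmembrane chains beside Col17a1, Col23a1 was at 21.4 FPKM, Col13a1 at 4.00 and Col25a1 at 0.54. Col28a1 (0.63 FPKM) and Col26a1, listed at 0 in 16 samples, complete the 40.

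The rule has a threshold. Just inside it were Col25a1, with at least 1 FPKM in 6 samples, Col28a1 in 8 and Col26a1 in 9. Just outside were Col6a4 and Col6a5, with 1 sample each, and Col6a6 and Col19a1, with 0 samples. Transcripts of neighbouring genes overlap for some members: 234 exonic bases of Col9a3 (6.07%) lie opposite Tcfl5, and 563 of Col4a3 (5.65%) opposite C430014B12Rik. Whether the authors' counting used strand is not given in the sources used here, so these levels are uncertain to that extent. For the other members the overlap with any single gene was at most 1.54% of the exonic bases.

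Chains that assemble into 1 molecule were compared next, across the 30 samples on the log2(FPKM + 1) scale, in 12 pairs with permutation tests adjusted over the pairs by the Benjamini-Hochberg method. The 5 pairs that passed were the type I pair, the type VIII pair, Col6a1 with Col6a2, and both head-to-head pairs of specialised type IV chains. The other 7 pairs did not pass, among them Col6a1 with Col6a3. Pearson's r was 0.87 for Col8a1 with Col8a2 (Spearman's rho 0.87), 0.84 for Col1a1 with Col1a2 (rho 0.83), 0.82 for Col6a1 with Col6a2 (rho 0.83) and 0.72 for Col4a5 with Col4a6 (rho 0.75). Each of these 4 had a permutation p of 1e-05, the smallest that 100000 permutations can give, and an adjusted p of 3.0e-05. Without the 2 samples farthest from the median of the first gene, r was 0.87, 0.79, 0.75 and 0.75 in that order.

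The pair Col4a3 and Col4a4 had r = 0.57 (rho 0.50, permutation p = 0.00097, adjusted p = 0.00233), and 0.47 without the 2 farthest samples. Among 10 mice with consecutive animal numbers it was 0.27, and among another such 8 mice 0.60. The 10 mice, here and below, include the ZT14 sample of replicate 3, which stood apart. These genes start 72 bases apart on opposite strands of chromosome 1, and Col4a5 and Col4a6 start 1309 bases apart on the X chromosome.

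Col4a1 and Col4a2, the most widespread type IV pair, start 21 bases apart on opposite strands of chromosome 8, yet had r = 0.27 (rho 0.33, permutation p = 0.153, adjusted p = 0.183). The ratio of Col4a1 to Col4a2 had a median of 2.60 and ran from 0.68 to 5.05. Col9a1 and Col9a3 had r = -0.28 (rho -0.26, permutation p = 0.129, adjusted p = 0.172), and Col9a3 was the higher in 30 of 30 samples, with a median ratio of Col9a1 to Col9a3 of 0.0428. Col9a1 and Col9a2 had r = 0.40 (permutation p = 0.0355, adjusted p = 0.0609), while their rho of 0.51 passed (permutation p = 0.00400, adjusted p = 0.0096). The remaining pairs that did not pass had r = 0.08 for Col5a1 with Col5a2, 0.07 for Col11a1 with Col11a2, 0.32 for Col6a1 with Col6a3 and 0.41 for Col4a3 with Col4a5, with adjusted permutation p values from 0.0526 to 0.714.

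Some correlations were as high across types as within a trimer. Given as a description, with no test, r was 0.87 for Col1a2 with Col6a1, 0.84 for Col1a2 with Col6a2, 0.84 for Col8a1 with Col4a4 and 0.83 for Col8a2 with Col9a3. All these values share libraries and depth. Over all pairs within the fibrillar class the median r was 0.15, within the basement membrane class 0.23 and within the others 0.13. Single pairs ran from -0.23 to 0.84, from -0.36 to 0.72 and from -0.43 to 0.87 in that order. These medians take in genes of low level, and no value over all genes was set beside them.

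Since the eyecup holds several tissues, each collagen gene was set against the mean log2 level of 13 marker lists (RPE, stroma, tendon and sclera, cartilage, endothelium, mural cells, skeletal muscle, surface epithelium, rods, myelin, lens, melanocytes and immune cells), none of which holds a collagen gene. Of the 520 correlations, 57 passed a permutation test adjusted over all 520, with 45 positive and 12 negative, and 19 of the 40 genes passed with no list. Among the abundant genes, the highest r was with the RPE list for Col8a2, Col8a1 and Col9a3, with the tendon and sclera list for Col1a2 and Col1a1, and with the surface epithelium list for Col17a1. These were not separate groups, since Col8a2 also passed with the tendon and sclera list (r = 0.58) and Col1a2 with the RPE list (r = 0.57), each with an adjusted permutation p of 0.0154. Col3a1 and Col18a1, abundant too, passed with no list.

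With the RPE markers 5 genes passed in the positive direction. They were Col8a2, with r = 0.90 (rho 0.87, 0.87 without the 2 farthest samples), Col8a1 with r = 0.88 (rho 0.85, 0.83 without them), Col9a3 with r = 0.85 (rho 0.78, 0.76 without them), Col4a4 with r = 0.75 (rho 0.66, 0.64 without them) and the fibrillar gene Col1a2 with r = 0.57 (rho 0.57, 0.49 without them). Each of the first 4 had a permutation p of 1e-05 and an adjusted p of 0.000347, and Col1a2 had a permutation p of 0.00098 and an adjusted p of 0.0154. Among the 8 and the 10 mice with consecutive animal numbers, r was 0.96 and 0.59 for Col8a2, 0.89 and 0.66 for Col8a1, 0.92 and 0.53 for Col9a3, 0.86 and 0.17 for Col4a4, and 0.58 and 0.24 for Col1a2, so the relations of Col4a4 and Col1a2 were weak in the second. Col8a2, Col8a1, Col9a3 and Col4a4 also passed with the melanocyte list, with r from 0.66 to 0.74. That list holds genes that RPE cells express too, such as Dct and Tyrp1. Among the 10 mice those r values lay between -0.40 for Col8a1 and 0.13 for Col9a3, so that relation was not seen there. The part of the sample that stood apart, 1 of these 10, was not tested.

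The tendon and sclera markers, genes such as Fmod, Tnmd and Scx, gave high r values with chains of the fibrous stroma. Col1a2 had r = 0.87 (rho 0.86), Col6a1 0.79 (rho 0.73), Col6a2 0.77 (rho 0.76) and Col12a1 0.72 (rho 0.69), each with a permutation p of 1e-05 and an adjusted p of 0.000347. Without the 2 farthest samples they were 0.82, 0.68, 0.75 and 0.68. Col1a1 had r = 0.67 (rho 0.68, 0.61 without the 2 samples), with an adjusted permutation p of 0.00173. Among the 8 and 10 mice r was 0.65 and 0.89 for Col1a2 and 0.48 and 0.85 for Col1a1. In all, 8 genes passed with this list, against 3 with the stroma list, which were Col1a2, Col6a1 and Col6a2. Col3a1 did not pass with any list, and its highest r was 0.46 with the tendon and sclera markers (rho 0.27, adjusted permutation p = 0.0696).

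Col17a1 followed the surface epithelium markers, with r = 0.82 (rho 0.67, 0.73 without the 2 farthest samples, permutation p = 1e-05, adjusted p = 0.000347), and r was 0.89 and 0.79 among the 8 and the 10 mice. It ran against the endothelium and immune lists, with r = -0.74 and r = -0.75. Of the genes that passed with the RPE markers, 3 ran against the surface epithelium markers, with r = -0.55 for Col8a2, -0.54 for Col9a3 and -0.53 for Col8a1, and among the 10 mice these were -0.20, -0.19 and -0.28. FPKM is relative to each sample's total, and the part of this in the negative signs was not tested.

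**Figure D3:**
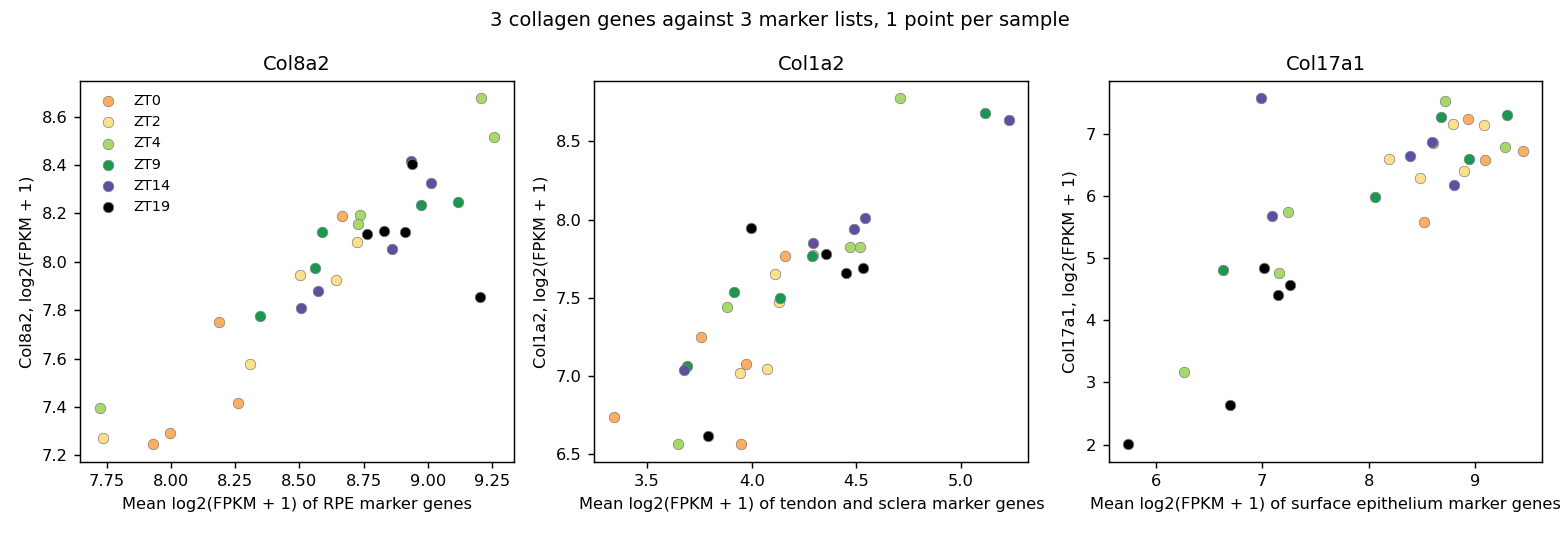
Level of 3 collagen genes against the mean level of a marker list, both as log2(FPKM + 1), with 1 point per sample and colour by zeitgeber time. Col8a2 rose with the RPE markers (r = 0.90), Col1a2 with the tendon and sclera markers (r = 0.87) and Col17a1 with the surface epithelium markers (r = 0.82), where the ZT19 samples lie at the lower left.

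Col14a1, Col5a2 and Col4a1 each had their own highest r with the mural cell list, of vessel-wall markers. Their r values were 0.74 (rho 0.64), 0.70 (rho 0.65) and 0.57 (rho 0.48) in that order. The adjusted permutation p values were 0.000347, 0.000347 and 0.0154. The r of Col4a1 lay below those of Col1a2 and Col8a2 with this list, given further on. Among the 8 and 10 mice r was 0.72 and 0.63 for Col14a1, 0.11 and 0.75 for Col5a2, and 0.55 and 0.23 for Col4a1. A total of 11 genes passed with this list, and most of them were genes that passed with the RPE or the tendon and sclera list too, with r = 0.69 for Col1a2 and 0.66 for Col8a2. Among the 10 mice these last 2 values were -0.04 and -0.09. Col14a1 also passed with the endothelium list (r = 0.70).

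Among lesser members, Col4a5 passed with the cartilage list (r = 0.58, adjusted permutation p = 0.0154), of which 3 of 7 genes could be used, Acan and Matn1 being listed at 0 in 17 and 26 samples. Col2a1 passed with the rod list (r = 0.57, adjusted permutation p = 0.0154), and r was 0.69 and 0.35 among the 8 and 10 mice. Col18a1, the leading basement membrane gene, passed with no list, and its highest r was 0.22.

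The genes outside the collagens with the most similar patterns, by Pearson's r over the 30 samples, are given without a test. For Col8a2 they were Rdh10 (r = 0.91), Car14 (0.91), Psap (0.90), Stra6 (0.89) and Timp3 (0.88). Of these, Rdh10 and Stra6 act in retinoid handling and Timp3 is an inhibitor of matrix proteases found in Bruch membrane. For Col1a2 they were Cilp2 (0.90), Fmod (0.89), Igfbp4 (0.88), Plpp3 (0.88) and Ctsk (0.88). Fmod is a proteoglycan that binds type I fibres. For Col18a1 the values were lower, with Dkk3 (0.80), Fbln1 (0.75), Mfap4 (0.74), Gpx3 (0.73) and Notum (0.72). Col17a1 was added after its values were seen, and its closest genes were 2610528A11Rik (0.91), Slurp1 (0.91), Krt12 (0.91), Aqp5 (0.90) and Fam83a (0.90), of which Krt12 is the keratin of corneal epithelium.

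The study asks how RPE transcripts change over the day. No collagen gene passed an adjusted p below 0.05 in any of 4 limma comparisons on log2(FPKM + 1), each adjusted over all 16741 genes. For a 24 h rhythm, 0 of 40 collagen genes passed, where 0.108% of all tested genes did (18 genes). For any difference among the 6 time points 0 of 40 passed against 0.0717% of all genes, for the mean of ZT2, ZT4 and ZT9 (day) against that of ZT14 and ZT19 (night) 0 of 40 against 0.0299%, and for ZT0 against ZT19 0 of 40 against 0.0418%. Each of these shares of 40 genes comes to less than 1 gene. At an unadjusted p below 0.05 there were 4, 5, 5 and 7 collagen genes in these comparisons, or 10.0%, 12.5%, 12.5% and 17.5%, against 8.76%, 8.67%, 10.5% and 13.0% of all genes. The median fitted amplitude, the log2 distance from mean to peak, was 0.24 for the collagen genes and 0.22 for all genes.

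Col3a1 had the smallest p for a rhythm. Its level was 68.5, 138, 143, 76.2 and 90.6 FPKM at ZT0 and 202, 155, 117, 204 and 254 FPKM at ZT9. The 2 groups overlapped. The fitted amplitude was 0.44 ± 0.12 (SE) on the log2 scale with a peak at ZT 8.57 and an adjusted p of 0.338 in limma. With the levels of the stroma, muscle and surface epithelium markers as terms, the amplitude was 0.52 and the adjusted p 0.0484, and with runs of animal numbers as terms they were 0.35 and 0.567.

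Col13a1, a transmembrane collagen, was highest at night. It measured 3.05 ± 1.5 FPKM at ZT0, 3.90 ± 0.90 at ZT2, 3.02 ± 0.96 at ZT4, 3.06 ± 1.25 at ZT9, 6.98 ± 3.60 at ZT14 and 6.86 ± 2.42 at ZT19 (mean ± SD, n = 5 each). At ZT14 its values were 1.76, 9.38, 10.7, 5.03 and 8.05 FPKM, and at ZT19 9.10, 9.10, 3.33, 5.89 and 6.89. Of these 10 night samples, 8 lay above every sample of ZT2, ZT4 and ZT9. The log2 difference of day from night was -0.80 ± 0.24 (SE), with an adjusted p of 0.291 in limma. Without the ZT14 sample of replicate 3 it was -0.71. With the stroma, muscle and surface epithelium levels as terms it was -0.62, with an adjusted p of 0.9997 in limma. In the same comparison the stroma and skeletal muscle markers had median log2 differences of -0.30 and -0.65. The median fitted effect over the collagen genes was 0.05, against 0.02 over all genes.

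Col7a1 ran the other way. Its values were 2.25, 5.83, 2.74, 38.0 and 5.01 FPKM at ZT4, 7.65, 9.16, 9.80, 18.6 and 8.47 at ZT9, and 16.3, 0.66, 0, 1.32 and 0.29 at ZT19. At ZT19 4 of 5 samples lay below every sample of ZT4 and ZT9, and the fifth above most of them. Its values at ZT2, by day, were 19.6, 2.71, 11.0, 5.04 and 9.32 FPKM. Those at ZT14, by night, were 4.32, 10.2, 0, 6.94 and 3.92 FPKM, and these groups overlapped each other. The log2 difference of day from night was 1.41 ± 0.45 (SE), with an adjusted p of 0.311 in limma, and it was 1.13 without the ZT14 sample of replicate 3, which is listed at 0. With a pseudocount of 0.1 in place of 1 it was 2.33, since low values then weigh more. With the stroma, muscle and surface epithelium levels as terms it was 1.19, with an adjusted p of 0.9997 in limma.

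Col24a1, a low fibrillar gene, stood apart at ZT4. It measured 7.32, 5.02, 3.81, 4.64 and 1.19 FPKM there, and at most 2.75 FPKM in any other sample, so 4 of the 5 ZT4 samples lay above all others. The ZT4 samples were all left eyes. The adjusted p for any difference among time points was 0.356 in limma.

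**Figure D4:**
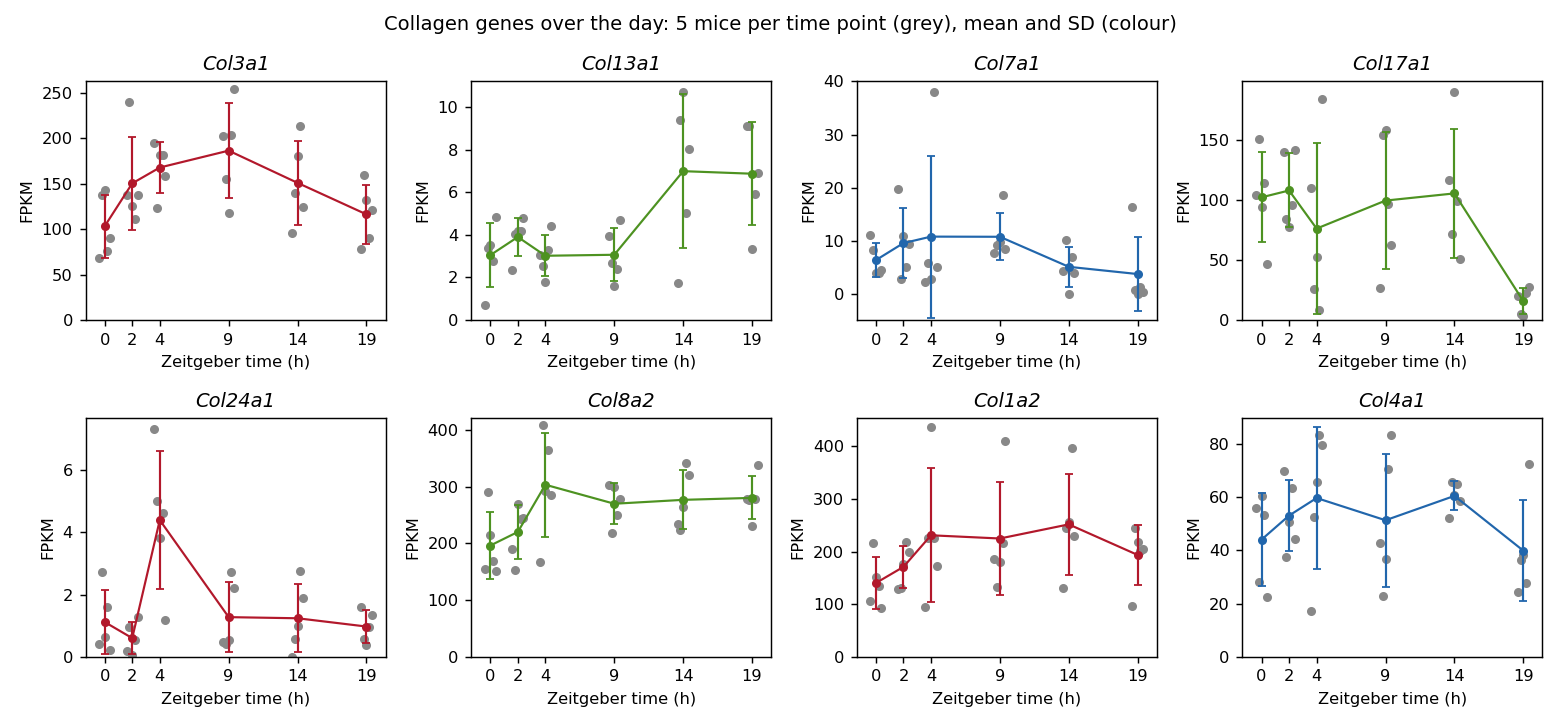
FPKM of 8 collagen genes by zeitgeber time, with the 5 mice of each time point in grey and their mean and SD in colour (red fibrillar, blue basement membrane, green other). Col17a1 at ZT19 lies between 3.0 and 27.7 FPKM, below all ZT0 samples, and Col24a1 is highest at ZT4.

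From ZT19 to ZT0, night to dawn, the largest difference among the collagen genes was that of Col17a1. It measured 20.2, 5.23, 3.0, 22.9 and 27.7 FPKM at ZT19 and 105, 151, 94.5, 114 and 47.0 FPKM at ZT0, and the 2 groups did not overlap. At ZT2, ZT4, ZT9 and ZT14 its means were 108 ± 30.8, 76.2 ± 71.6, 99.6 ± 57.1 and 106 ± 53.5 FPKM (SD, n = 5 each), with single samples down to 8.03 FPKM at ZT4. The log2 difference was 2.90 ± 0.63 (SE), with an adjusted p of 0.0676 in limma, just short of the threshold. It was past the threshold when 1 of 4 samples was left out, with adjusted p values of 0.0313 without ZT4 replicate 4, 0.0398 without ZT9 replicate 1, 0.0417 without ZT4 replicate 5 and 0.0437 without ZT14 replicate 3. Runs of animal numbers as terms gave 2.96 and an adjusted p of 0.318.

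The surface epithelium markers moved with it. All 10 of 10 were higher at ZT0 at an unadjusted p below 0.05 in limma, against 13.0% of all genes in either direction. Of the 10 markers, 0 passed over all genes, their median log2 difference was 1.88, and none is listed at 0 in any sample. Their summed level was 9395 to 18242 FPKM at ZT0 and 2175 to 3631 FPKM at ZT19. With the stroma, muscle and surface epithelium levels as terms, the difference of Col17a1 was 0.74, with an adjusted p of 0.983 in limma.

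The members with the next smallest p values in limma were lower at ZT0. Col13a1 differed by -1.0 ± 0.36 on the log2 scale (SE, adjusted p = 0.202 in limma). Col8a2 measured 156, 291, 214, 169.7 and 151 FPKM at ZT0 and 278, 277, 231, 278 and 337 FPKM at ZT19, and 4 of the 5 ZT0 samples lay below every ZT19 sample. Its log2 difference was -0.55 ± 0.21 (SE), with an adjusted p of 0.230. Col10a1 and Col9a3 had differences of -0.93 and -0.64. After these by p value, Col7a1 was higher at ZT0, by 1.49 ± 0.69 (SE, adjusted p = 0.350 in limma). So was Col9a1, by 0.99 ± 0.49 (SE, adjusted p = 0.387 in limma). At the same times the RPE markers had a median log2 difference of -0.77. At an unadjusted p below 0.05 in limma 7 of 8 were lower at ZT0, against 13.0% of all genes in either direction. Their summed level was 5715 to 10335 FPKM at ZT0 and 10785 to 15428 FPKM at ZT19. Among the RPE markers Best1 is listed at 0 in 8 of all 30 samples, and the others in none. With the stroma, muscle and surface epithelium levels as terms the difference of Col8a2 was -0.13. RPE levels were not a term in that fit.

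By class, 8 of 9 basement membrane genes had a positive ZT0 minus ZT19 difference (median 0.24), against 3 of 11 fibrillar genes (median -0.38) and 6 of 20 others (median -0.22). The median over all genes was -0.02. These counts are fitted signs, and none of the genes passed. Col18a1 measured 95.8 ± 18.9 FPKM at ZT0 and 66.1 ± 35.4 at ZT19 (mean ± SD, n = 5 each), a log2 difference of 0.68 ± 0.32 (SE, adjusted p = 0.364 in limma). Col1a2 measured 140.2 ± 48.5 and 193 ± 56.6 FPKM, a log2 difference of -0.46 ± 0.34 (SE, adjusted p = 0.639). The stroma markers had a median difference of -0.69. At an unadjusted p below 0.05 in limma 6 of 10 were lower at ZT0, against 13.0% of all genes in either direction. Their summed level was 1201 to 1787 FPKM at ZT0 and 1689 to 2731 FPKM at ZT19. The skeletal muscle markers had a median difference of -1.48, with 9 of 10 lower at ZT0 at such a p. None of the stroma or skeletal muscle markers is listed at 0, and the part of both lists in the class medians was not tested.

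Genes that act on collagens gave a like picture, with 0 members past an adjusted p of 0.05 in each of the 4 comparisons. Of 35 genes for collagen folding, processing and cross-linking, 33 were tested. Sparc, a collagen-binding matrix protein, had the highest median in this list (547 FPKM). At an unadjusted p below 0.05 there were 2 of 33 for a rhythm, where 8.76% of all genes were, with P4ha1, a chain of the enzyme that hydroxylates collagen prolines, the smallest (amplitude 0.26 ± 0.08 SE, adjusted p = 0.476 in limma). For ZT0 against ZT19 there were 4 of 33, where 13.0% of all genes were, with Pcolce2, an enhancer of procollagen cleavage, the smallest (log2 difference -1.12 ± 0.36 SE, adjusted p = 0.148).

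All 12 small leucine-rich proteoglycans, which coat fibres and set their width, were tested. Dcn was the highest (938 FPKM). Podn had the smallest p for a rhythm, with an amplitude of 0.78 ± 0.18 (SE), a peak at ZT 15.5 and an adjusted p of 0.175 in limma, and 3 of 12 were at an unadjusted p below 0.05, where 8.76% of all genes were. For ZT0 against ZT19 there were 7 of 12, where 13.0% of all genes were, 1 of them higher at ZT0. Lum had the smallest p (log2 difference -0.81 ± 0.26 SE, adjusted p = 0.142 in limma). Dcn, Lum and Ogn are also in the stroma list, which had a median of -0.69 in this comparison, and Fmod and Kera in the tendon and sclera list, with a median of -0.60.

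Of 15 laminins and other basement membrane partners, 14 were tested, with Lamb2 the highest (52.7 FPKM). For day against night, 5 of 14 were at an unadjusted p below 0.05, all higher by day, where 10.5% of all genes were, and Lamb1 had the smallest p (log2 difference 0.47 ± 0.16 SE, adjusted p = 0.324 in limma). In the same comparison 5 of 10 surface epithelium markers were at an unadjusted p below 0.05, all higher by day, with a median log2 difference of 0.73, and their part in the laminin values was not tested. For ZT0 against ZT19 there were 4 of 14, where 13.0% of all genes were, 3 of them higher at ZT0, and the smallest was Lama3, an epithelial laminin chain (log2 difference 1.40 ± 0.50 SE, adjusted p = 0.189). The 13 elastic fibre genes, with Efemp1 the highest (139.96 FPKM), had 1 member at an unadjusted p below 0.05 for a rhythm and 3 for ZT0 against ZT19, where 8.76% and 13.0% of all genes were. The collagen receptors, with 9 of 10 tested and Itgb1 the highest (109.7 FPKM), had 0 in every comparison, and the smallest adjusted p among them was 0.469, for Ddr1 at ZT0 against ZT19.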

How the data were processed

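RNA from RPE of 30 mice was sequenced as single reads of 75 bp, per the labels' protocols. STAR, Cufflinks, DESeq2 and the build mm10 are named, without versions, in the submitters' processing notes. The deposited values are FPKM per gene and sample computed by the authors, written with decimal commas and used as deposited, so no count test was run. The depth is an estimate from the spacing of low values.

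Genes at 1 FPKM or more in 5 or more samples (16741) were fitted on the log2(FPKM + 1) scale by limma (version 3.58.1, R 4.3.3), using a variance trend: a 24 h cosine (F test on both terms), and 1 mean per time point for the other comparisons. Adjusted p values are Benjamini-Hochberg over all genes, with a threshold of 0.05. The fits were tested on simulated data. Correlations used 100000 two-sided permutations. Each sample is 1 mouse. Ranges, or values by sample or time point, are given for the 4 highest medians of each type and the 3 smallest p of each comparison. The members and lists were chosen with earlier results of these data known. Repeats were read from coding sequences, since the planned protein sequences were not used here. Alternatives varied pseudocount, filter, scaling, variance trend, terms for animal-number runs, eye side and marker levels, and left out single samples.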

Additional observations from a re-analysis of the deposited data

Results flagged for a closer look

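Single samples far from the other 4 were sought in 72 groups of 5 mice. The groups were 12 collagen genes, the 4 with the highest medians of each type, at 6 time points. In 2 groups a sample lay past Dixon's 95% limit of 0.71, where chance flags about 1 in 20. The limit is for the gap over the range on the log2(FPKM + 1) scale. At ZT19, Col1a2 was 97.13 FPKM in replicate 1, and 201 to 245 FPKM in the other mice. At ZT2, Col3a1 was 240.4 FPKM in replicate 2, and 111 to 138 FPKM in the other mice.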

How the results depend on the processing

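No paired analysis was possible because the replicate numbers follow accession order and pair no mice across time points. The count of collagen genes past the threshold stayed at 0 in each comparison under most settings. It was 1 for the rhythm with stroma, muscle and surface epithelium levels as terms (Col3a1), 1 for ZT0 against ZT19 without the sample that stands apart (Col17a1), and 0 to 1 when single samples were left out, both for ZT0 against ZT19 and for any difference among time points, where it was 1 without ZT4 replicate 4 (Col17a1, adjusted p = 0.0447 in limma). All genes called for ZT0 against ZT19 ran from 0 to 107, the latter without ZT14 replicate 3, and for day against night from 1 to 7. The number of members was 36 with at least 15 samples and 41 with an FPKM of 0.5. Partner pairs past the threshold numbered 5 to 7, and marker correlations 42 to 80. Of the 57 marker correlations, 54, 54 and 44 passed with a pseudocount of 0.1, median scaling and time-point means removed, 0 changed sign, and 30 passed whichever single sample was left out. The r of Col5a1 with Col5a2 ranged from -0.0572 without ZT0 replicate 5 to 0.198 without ZT14 replicate 3, and that of Col11a1 with Col11a2 was -0.0393 with time-point means removed. The cause was not tested. Depth limits genes of low FPKM, where a listed 0 can be a failed estimate.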
